A study of Saccharomyces cerevisiae with 7 samples.

Results

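The values of 6 h in a meiotic time course of budding yeast (Saccharomyces cerevisiae) were set against those of the neighbouring times, 5 and 8 h. For each open reading frame (ORF) the difference is the 6 h value minus the mean of the 5 h and 8 h values, and all 5585 ORFs with these 3 values were used, of 6141 in the table. A further 321 ORFs have a value at 6 h alone and are described at the end. The culture carried the spo11-Y135F mutation at every time. Spo11 cuts DNA to start meiotic recombination, and the mutation replaces the tyrosine with which it does so, which leaves the breaks unmade. The titles of all 7 samples name this mutant, while the descriptions of the 1 and 2 h samples leave it out. Samples were taken at 1, 2, 3, 4, 5, 6 and 8 h. Each array compared mRNA of its time (Cy5) with a mixture of mRNA from all times (Cy3), and the deposited value is the log2 of that ratio relative to the ratio at 0 h. No wild type was analysed here.

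When diploid yeast is starved of nitrogen without a fermentable sugar, it enters meiosis and forms spores. Genes of recombination and chromosome pairing come first, the transcription factor Ndt80 then switches on the genes of the nuclear divisions and of the prospore membrane, and genes of the outer spore wall follow. Growth genes, such as those for ribosomal proteins, are repressed on starvation. A value that stands out at 6 h can be a peak of the transcript, scatter of that column or an offset that goes with chromosome position, described below. With 1 column at 6 h these cannot be told apart.

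A difference of 1 on the log2 scale is 2-fold, and this size was used for all counts. There is 1 column of values per time, so no test exists for any difference and every size is a description of 3 columns. The design text states 2 cultures as duplicates, and nothing in the sources used here says how they enter the 1 column per time. Because a culture holds cells at different stages, fewer cells at a stage and less RNA per cell cannot be told apart. If all columns were divided by the same measurement at 0 h, it cancels in the difference, but whether the 6 h column shares it is not given.

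The 6 h column stood apart from the rest before any gene was considered. It has 5906 values where the column of 5 h has 5635. Its standard deviation over the ORFs was 1.49, against 1.36 at 5 h and 1.12 at 8 h. The difference from the neighbours had a standard deviation of 0.81 at 6 h, against 0.42 at 2 h, 0.51 at 3 h and 0.34 at 4 h, each set against the mean of its own neighbours over the same ORFs. The neighbours of 6 h are 3 hours apart and those of the other times 2 hours, and the part of this wider gap in the spread was not tested. NDT80, a marker of the middle of meiosis, was at 7.47 at 6 h.

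At 6 h, 596 ORFs (10.7% of those used) lay at least 2-fold above the mean of 5 and 8 h and 549 (9.83%) at least 2-fold below it. The same counts were 68 above (1.22%) and 52 below (0.931%) at 2 h, 45 above (0.806%) and 207 below (3.71%) at 3 h, and 54 above (0.967%) and 10 below (0.179%) at 4 h. A gene that is high at 5 h and low at 8 h can lie above the mean without a peak, so a stricter count asks for at least 2-fold above the higher, or below the lower, of 5 and 8 h. By that count 289 ORFs (5.17%) stood above both neighbours at 6 h and 233 (4.17%) below both. At 2 h the stricter count was 24 ORFs above (0.43%) and 17 below (0.304%), at 3 h by 7 above (0.125%) and 52 below (0.931%), and at 4 h by 3 above (0.0537%) and 1 below (0.0179%). Of the 596 ORFs above the mean, 298 lay above both neighbours by less than 2-fold and 9 lay between them. Of the 549 below the mean these numbers were 291 and 25. Over all ORFs used, 1825 (32.7%) had a 6 h value between those of 5 and 8 h.

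**Figure D1:**
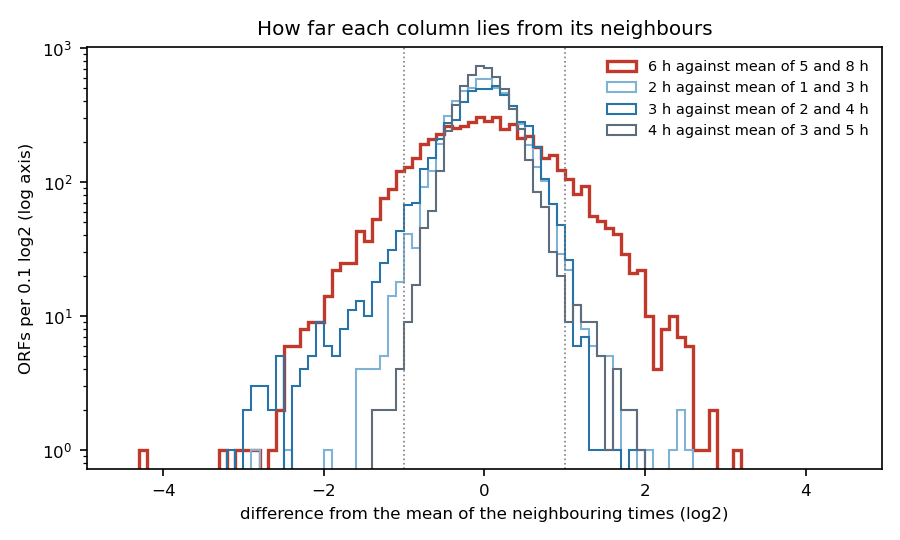
Number of ORFs (log axis, bins of 0.1 log2) by the difference of a column from the mean of its neighbouring times, for 6, 2, 3 and 4 h; dotted lines mark 2-fold. The 6 h curve is the widest on both sides, with 596 ORFs at or beyond 1 and 549 at or beyond -1.

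The 289 ORFs above both neighbours had a median of 1.83 at 6 h, against 0.40 at 5 h and 0.15 at 8 h, and 277 of them had a 6 h value above 0. The 233 below both had a median of -1.70 at 6 h, against -0.20 at 5 h and -0.03 at 8 h, and 220 of them had a 6 h value under 0. In 187 ORFs the 6 h value exceeded that of every other time by at least 2-fold, and in 139 it was at least 2-fold under every other time. At 4-fold, 50 ORFs lay above the mean and 46 below it, with 12 above both neighbours and 13 below both. The size of 2-fold does not mark a gap in the values. ISW2, a chromatin remodeller, and NUS1, of dolichol synthesis, lay just inside with differences of 1.0009 and 1.0025, while MRP49 and CDD1 lay just outside with 0.999 and 0.9981. On the other side ALK2 and SIZ1 lay just inside with -1.0002 and -1.0031, and DDI1 and FAA2 just outside with -0.9994 and -0.9978.

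Among genes with a name, ELO3 stood farthest above both neighbours. It encodes a fatty acid elongase that makes the very long chains of sphingolipids. Its log2 ratio was -0.23, 1.04, 0.97, 2.55, 3.43, 5.94 and 2.72 at 1, 2, 3, 4, 5, 6 and 8 h. At 6 h it was thus 7.28-fold above the geometric mean of 5 and 8 h, a difference of 2.86 that was 1.92 after scaling the columns and 1.64 after quantile normalization. PIR5, of a family of cell wall proteins, was at 9.89 at 6 h, against 6.72 at 5 h and 7.45 at 8 h, and HXT14, of the hexose transporter family, at 9.05 against 6.80 and 6.12. Both were below 0 at 3 h (-0.27 and -0.19) and near 4 at 4 h (3.94 and 4.24), and both were highest at 6 h. Their differences of 2.81 and 2.59 were 1.08 and 1.08 after scaling the columns to the same standard deviation, and 1.39 and 1.17 after quantile normalization. PCT1, which makes CDP-choline for phosphatidylcholine, was also highest at 6 h with 5.05, against 2.90 at 5 h and 2.60 at 8 h.

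Other genes stood high at 6 h without a climb before it. COX11, which brings copper to cytochrome c oxidase, was at 1.84 at 6 h, against -0.48 at 5 h and -0.75 at 8 h. MEF1, a mitochondrial translation elongation factor, was at 0.92 at 6 h and below 0 at every other time, with -1.28 at 5 h and -1.53 at 8 h. PUT7, a mitochondrial protein of proline metabolism, was at 2.17 at 6 h, against -0.06 at 5 h and -0.30 at 8 h. SWR1, the ATPase that places the histone variant H2A.Z, was at 2.28, against -0.09 and 0.12. GPM3, a relative of phosphoglycerate mutase, was at 2.32, against 0.16 and -0.29, and GPI11, of glycosylphosphatidylinositol anchor synthesis, was at 2.89, against 0.88 and 0.01. AXL2, the landmark of axial budding, was at 2.60, against 0.62 and -0.13. For these 7 genes no time but 6 h lay more than 2-fold above 0 h, other than PUT7 at 1 and 3 h (1.47 and 1.15), SWR1 at 2 h (1.22) and GPI11 at 4 h (1.02). The largest difference of all, 3.17, belonged to YOR342C, an ORF without a gene name, at 2.72 at 6 h, against -0.31 at 5 h and -0.59 at 8 h.

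**Figure D2:**
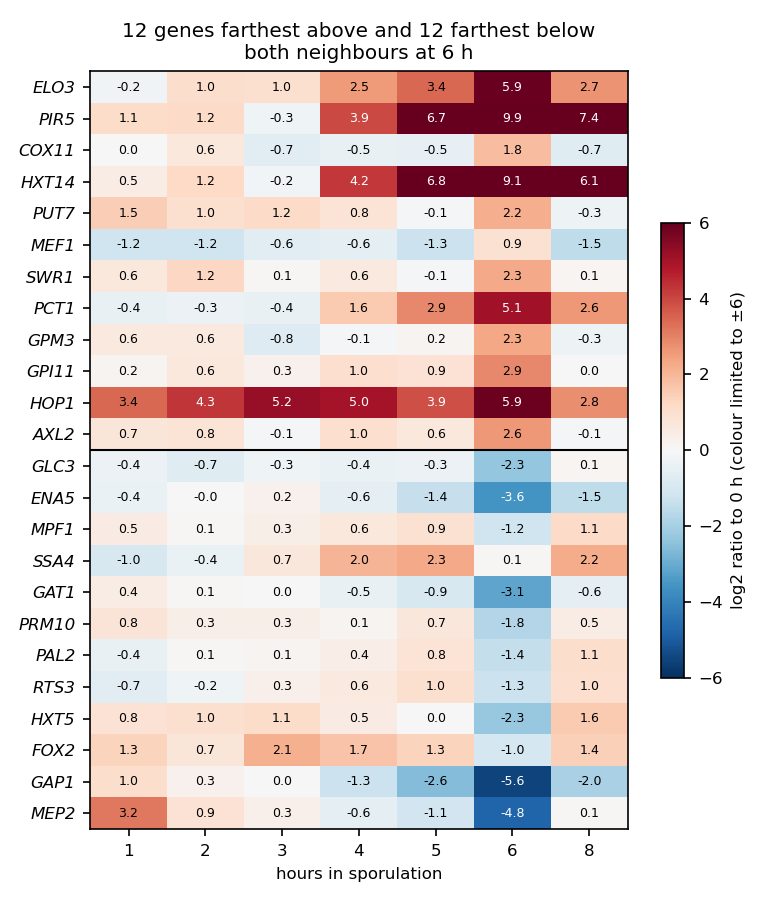
Log2 ratio to 0 h at each of 7 times for the 12 named genes farthest above both neighbours at 6 h (upper block) and the 12 farthest below both (lower block); colours stop at 6 and -6 and the cells print the values. ELO3 is at 5.9 at 6 h between 3.4 and 2.7, and MEP2 at -4.8 between -1.1 and 0.1.

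MEP2, an ammonium permease and sensor of nitrogen starvation, lay farthest below both neighbours. Its log2 ratio was 3.15, 0.87, 0.29, -0.59, -1.14, -4.81 and 0.06 at 1, 2, 3, 4, 5, 6 and 8 h, so the geometric mean of 5 and 8 h was 19.3-fold above the 6 h level. GAP1, the general amino acid permease, was at -5.57 at 6 h, against -2.62 at 5 h and -1.96 at 8 h. GAT1, a GATA activator of both, was at -3.15 at 6 h, against -0.94 at 5 h and -0.58 at 8 h. FOX2, of fatty acid oxidation in peroxisomes, was above 0 at every time but 6 h, with -1.04 at 6 h, against 1.32 at 5 h and 1.42 at 8 h. HXT5, a hexose transporter of slow-growing and starved cells, was at -2.27 at 6 h, against 0.00 at 5 h and 1.56 at 8 h. SSA4, a stress-induced Hsp70 chaperone, was at 0.08 at 6 h, against 2.29 at 5 h and 2.22 at 8 h, a low value between high ones. GLC3, the glycogen branching enzyme, was at -2.30, against -0.35 and 0.14.

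The remaining 5 of the 12 lowest were RTS3, PAL2, PRM10, MPF1 and ENA5. RTS3, a putative partner of protein phosphatase 2A, was at -1.27 at 6 h, against 0.98 at 5 h and 1.01 at 8 h. PAL2, linked to endocytosis, was at -1.41, against 0.83 and 1.07. PRM10 was at -1.76, against 0.67 and 0.45, and MPF1 at -1.20, against 0.90 and 1.13. These 4 genes were within 2-fold of 0 h from 1 to 5 h. ENA5, a sodium pump, was at -3.57, against -1.36 and -1.51. ENA5 belongs to a tandem of near-identical genes, whose copies an array may not separate.

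Described by lists of known genes, the 6 h differences were not the same for all functions. Over all ORFs, 10.7% lay at least 2-fold above the mean and 9.83% below, the shares beside which the list counts stand. Above both neighbours lay 5.17% and below both 4.17%. Medians over 37 lists ran from -0.78 for heat shock and oxidative stress to 0.96 for cytosolic ribosomal proteins, with -0.01 over all ORFs. The sign of the median was the same under all alternatives in 25 lists, 16 above 0 and 9 below. The alternatives centre, scale or quantile-normalize the columns, use a straight line in hours between 5 and 8 h, keep only matched ORFs, or remove the level of nearby ORFs.

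**Figure D3:**
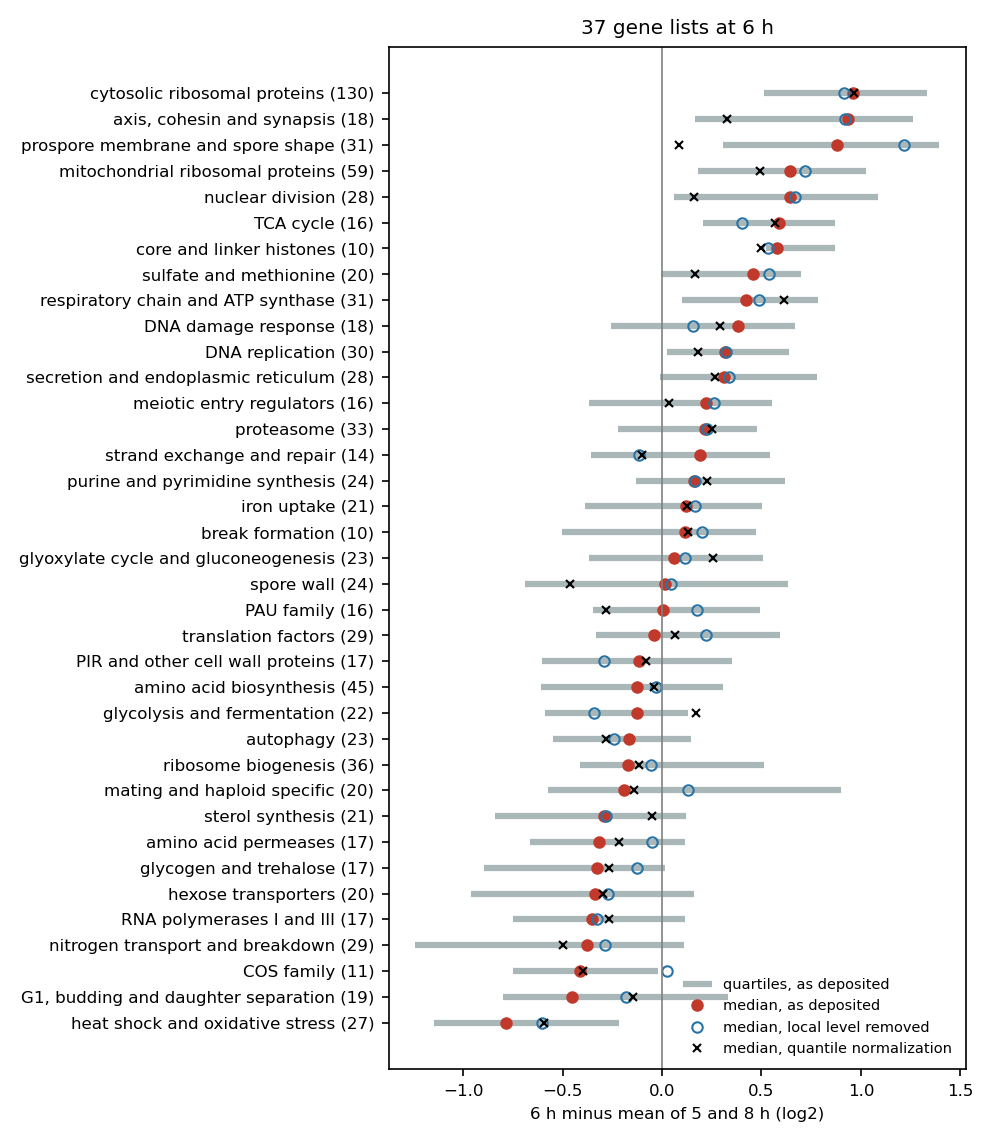
Median (red) and quartiles (grey bars) of the 6 h value minus the mean of 5 and 8 h for 37 gene lists, number of ORFs in brackets, with the median after removing the local level (open circles) and after quantile normalization (crosses). Cytosolic ribosomal proteins have the highest median (0.96) and heat shock and oxidative stress the lowest (-0.78); the prospore membrane list is at 0.88 as deposited and 0.09 after quantile normalization.

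Genes of the chromosome axis, cohesin and synapsis hold meiotic chromosomes together and pair them. Their median difference was 0.93 over 18 genes, with 9 at least 2-fold above the mean of 5 and 8 h (against 10.7% of all ORFs), 0 at least 2-fold below, and 3 above both neighbours. Against 5 h alone the median of the differences was 0.19 and against 8 h 1.50. HOP1, an axis protein that signals from breaks, had the largest excess of the list. Its log2 ratio was 3.44, 4.31, 5.21, 5.00, 3.89, 5.88 and 2.80 over the 7 times, and 6 h stood 1.99 above 5 h. PCH2, the ATPase that removes Hop1 from chromosomes, was at 3.47 at 6 h, against 2.39 at 5 h and 1.25 at 8 h. ECM11, of the synaptonemal complex, was at 2.30 at 6 h, against 1.30 at 5 h and -0.02 at 8 h. MSH4, a crossover factor, was above the mean of its neighbours by 1.21 yet at 3.96 at 6 h and 3.94 at 5 h. REC8, the meiotic cohesin, went the other way with 2.26 at 6 h, against 4.43 at 5 h and 2.03 at 8 h. The cohesin subunits SMC3 and IRR1 were at 2.69 and 1.77 at 6 h, against 1.97 and 0.92 at 5 h and 0.15 and 0.34 at 8 h. The cohesin subunit SMC1 was below both neighbours by less than 2-fold, at -0.91 at 6 h, against -0.11 at 5 h and -0.70 at 8 h.

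Among the genes that make breaks, 1 of 10 lay at least 2-fold above the mean (10.0%, against 10.7% of all ORFs) and 0 below. It was SPO11, the gene mutated in this strain, and a link between the mutation and its level was not tested. Its transcript was at 0.88, 1.32, 2.33, 2.38, 0.80, 2.12 and -0.27 over the 7 times, and 6 h was 3.62-fold above the geometric mean of 5 and 8 h. REC114 and REC102, partners of Spo11, were at 1.61 and 1.24 at 6 h, against 3.01 and 2.32 at 5 h and 2.15 and 1.53 at 8 h, below both neighbours by less than 2-fold. The median over the list was 0.11, and -0.11 against a straight line in hours. For strand exchange and repair 3 of 14 genes were at least 2-fold above (21.4%, against 10.7% of all ORFs) and 1 below (7.14%, against 9.83%). MEI5, which helps load Dmc1, was at 5.88 at 6 h, against 4.72 at 5 h and 2.11 at 8 h. SAE2, which trims break ends, was at 1.98, against 0.47 and 0.43, its highest value of the course, while the Shu complex gene SHU2 was at -1.31, against -0.47 and 0.21. The median of the list was 0.19, and it was below 0 after quantile normalization (-0.10), against a straight line (-0.02) and after removal of the local level (-0.11). The list of meiotic entry regulators also holds NDT80, which acts in the middle of meiosis. NDT80 was above the mean by 1.11 with 7.47 at 6 h, against 7.24 at 5 h and 5.48 at 8 h. Its difference was -0.0805 after scaling the columns and -0.22 after quantile normalization. IME4, the mRNA methyltransferase, was below both neighbours with -0.13 at 6 h, against 0.92 at 5 h and 1.35 at 8 h.

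Genes of the nuclear divisions had a median of 0.64 over 28, with 9 at least 2-fold above the mean (32.1%, against 10.7% of all ORFs) and 1 below, and 4 above both neighbours. The median was 0.33 after scaling the columns and 0.16 after quantile normalization. The median 5 h value of the list was 2.99, and 35.2% of all ORFs between 2 and 4 at 5 h lay at least 2-fold above the mean. The B-type cyclins CLB1, CLB6, CLB3, CLB5 and CLB4 were all among the 9, with differences of 1.79, 1.39, 1.33, 1.07 and 1.02. CLB1 was at 4.70 at 6 h, against 3.30 at 5 h and 2.53 at 8 h. CIN8, a spindle kinesin, was at 4.93 at 6 h, against 3.59 and 2.74, and SPC42, of the spindle pole body, at 4.89, against 3.54 and 2.72. After quantile normalization the differences of CLB1 and CIN8 were 0.78 and 0.74, under 2-fold. BIR1, of the chromosomal passenger complex, was at -1.94, against -0.69 and 0.27. AMA1, the meiotic activator of the anaphase-promoting complex, was below both neighbours by 0.71 with 5.61 at 6 h, against 6.45 and 6.32.

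The list of prospore membrane and spore shape genes had a median of 0.88 over 31, with 13 at least 2-fold above the mean (41.9%, against 10.7% of all ORFs), 0 below, and 8 above both neighbours (against 5.17% of all ORFs). The median 5 h value of the list was 4.81, and 42.4% of all ORFs above 4 at 5 h lay at least 2-fold above the mean. SPO19, a prospore membrane protein, was at 8.30 at 6 h, against 6.54 at 5 h and 5.60 at 8 h. SPR28, a sporulation septin, was at 9.11, against 7.72 and 6.38, and SSP1, of the coat at the leading edge of the membrane, at 8.14, against 6.98 and 5.49. All 3 were already above 6 at 5 h. ADY4, of the meiotic spindle pole body, was at 5.68, against 4.24 and 3.34, and the kinase SPS1 was at 8.49, against 7.14 at each neighbour. IRC10 and MUM3 were lowest in the list, with 2.56 and 1.11 at 6 h, against 3.99 and 2.19 at 5 h and 2.76 and 1.18 at 8 h. The median depended on the scale of the columns: it was 0.089 after scaling each to the same standard deviation and 0.085 after quantile normalization, and 0 of the 31 were then 2-fold above.

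Spore wall genes had a median of 0.01 over 24 that was -0.75 after scaling, -0.46 after quantile normalization and -0.06 against a straight line. GAS4, of the inner glucan layer, was at 7.41 at 6 h, against 5.72 at 5 h and 5.24 at 8 h, and DTR1, a dityrosine transporter of the prospore membrane, at 5.61, against 4.28 and 3.57. Their differences of 1.93 and 1.68 were 0.70 and 0.79 after scaling and 0.74 and 0.66 after quantile normalization. SPS100, a late gene, was at -1.29 at 6 h, against -0.81 at 5 h and 3.45 at 8 h, and DIT2, of dityrosine synthesis, at 2.17, against 2.30 and 5.72. DIT1, of the same pathway, was between its neighbours with 3.75 at 6 h, against 0.55 and 8.52. In all, 6 of the 24 were at least 2-fold above the mean (25.0%, against 10.7% of all ORFs) and 4 below (16.7%, against 9.83%). Above both neighbours stood 3 (against 5.17% of all ORFs) and below both 0.

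The spread of the difference varied with the level at 5 h, which itself enters the difference. Of the 85 ORFs above 4 at 5 h, 42.4% lay at least 2-fold above the mean at 6 h, and of the 273 between 2 and 4, 35.2% did. At least 2-fold below were 2.35% of the 85 and 5.49% of the 273. Among the 2009 ORFs between -1 and 0 at 5 h 5.62% lay above and 9.76% below. Of the 252 ORFs under -2 at 5 h, which include most of the ribosomal protein genes described next, 25.8% lay above and 14.7% below.

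Cytosolic ribosomal protein genes had the highest median of the 37 lists, 0.96 over 130 ORFs, with 63 (48.5%) at least 2-fold above the mean and 1 below, against 10.7% and 9.83% of all ORFs. Above both neighbours stood 15 of the 130, against 5.17% of all ORFs. The median of 6 h minus 5 h was 1.76 and that of 6 h minus 8 h 0.18, so for the list as a whole the distance to 5 h was the larger. RPS0A was at -2.12, -2.33, -2.09, -2.12, -2.78, 1.24 and 0.06 over the 7 times, and RPS8A at -2.01, -2.50, -2.34, -2.29, -3.06, 0.65 and -0.76. Both were below -2 from 1 to 5 h and above 0 at 6 h, and both are among the 15 above both neighbours, as are the next 2 genes. RPL1B was at 0.58 at 6 h, against -2.79 at 5 h and -1.13 at 8 h, and its copy RPL1A at 0.81, against -1.65 and -0.80.

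Most ribosomal proteins of yeast are encoded by a pair of near-identical genes, whose signals an array may share. Of 54 such pairs, 50 had both copies on the same side of 0 in the 6 h difference, in a list where 120 of the 130 members lay above 0. In 15 pairs both copies were at least 2-fold above and in 25 pairs 1 of them was, in a list where 48.5% of the members were. The median gap between the copies of a pair was 0.65 at 6 h, against 0.50 at 5 h and 0.35 at 8 h, and it was 0.61 at 1 h and between 0.31 and 0.33 at 2, 3 and 4 h. RPS1A and RPS1B had the same difference after rounding (1.15 each), as had RPS6A and RPS6B (1.88 each). RPL16A and RPL16B were at 0.05 and 1.98.

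**Figure D4:**
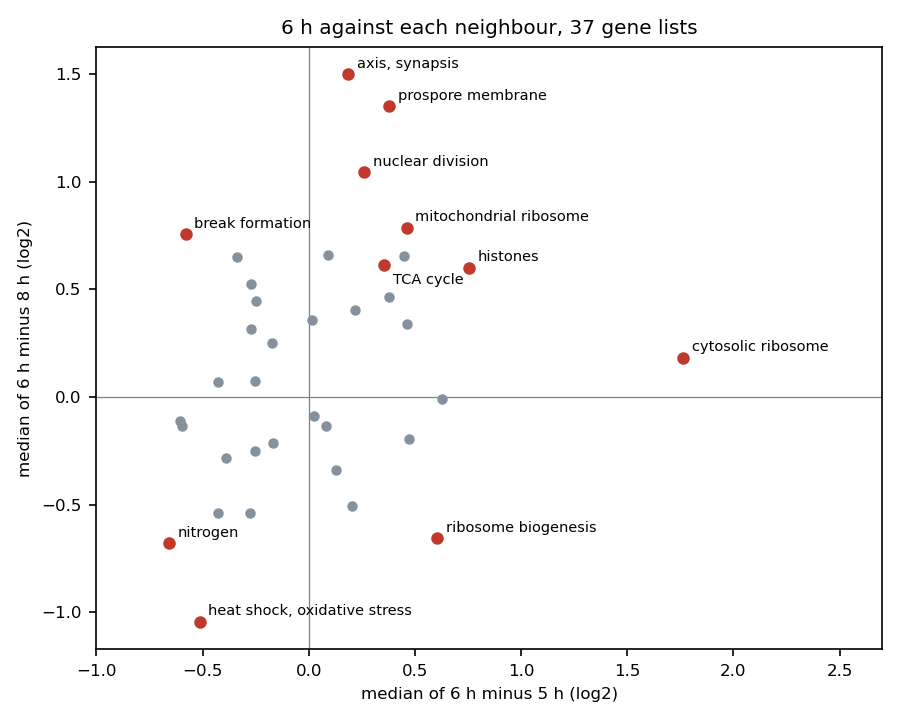
Median of 6 h minus 5 h (horizontal, log2) and of 6 h minus 8 h (vertical, log2) for the 37 gene lists, 1 point per list, with 11 lists named in red. Cytosolic ribosomal proteins lie far to the right (1.76 and 0.18), axis and prospore membrane genes at the top (1.50 and 1.35 on the vertical axis), and nitrogen and heat shock genes below 0 on both.

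Other genes of ribosome production did not share that step in full. Ribosome biogenesis factors, which build the subunits in the nucleolus, were above 5 h by a median of 0.61 and below 8 h by 0.65 over 36 genes. Their median difference was -0.17, and 0.10 against a straight line. NOP56, of the box C/D particles, was at 1.45 at 6 h, against -1.28 at 5 h and 1.597 at 8 h, and RRP12 at 1.34, against -0.81 and 1.33. Subunits of RNA polymerases I and III had a median of -0.35 over 17. In this list RPA43 was at 3.42 at 6 h, against 1.29 at 5 h and 1.46 at 8 h, and RPA190, the largest subunit of the same polymerase I, at -2.52, against -1.98 and -1.23. RPA43 is YOR340C and RPA190 is YOR341W, and the ORF of the largest difference, YOR342C, follows them on the chromosome arm.

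The mitochondrial ribosomal protein list had a median of 0.64 over 59 genes, with 17 at least 2-fold above the mean (28.8%, against 10.7% of all ORFs), 0 below and 10 above both neighbours (against 5.17%). MRPL36 was at -1.14, -1.06, -1.09, -0.25, -0.58, 1.82 and 0.19 over the 7 times. MRP17 was at 0.59 at 6 h, against -1.38 at 5 h and -1.16 at 8 h, and MRPL44 at 0.03, against -1.61 and -1.51. The median of 6 h minus 5 h was 0.46 and that of 6 h minus 8 h 0.79. The TCA cycle list had a median of 0.59 over 16 genes with 3 above (18.8%) and 0 below, led by LSC2, a succinyl-CoA ligase subunit, at 1.55, against 0.40 and -0.12. Subunits of the respiratory chain and ATP synthase had a median of 0.42 over 31 with 5 above (16.1%) and 1 below, shares of few genes beside the 10.7% of all ORFs. COX7, of cytochrome c oxidase, was at 1.38 at 6 h, against -0.21 at 5 h and -0.40 at 8 h. The 1 below was COX5B, the oxidase subunit of low oxygen, at -0.88, against 0.69 and 1.33. A list of cytochrome oxidase assembly genes was added after the values of COX11 were seen, and its median was 0.13. In it 3 of 17 were above (17.6%, against 10.7% of all ORFs) and 0 below (against 9.83%). COX11 is 1 of these 3, so the count is no separate evidence. COX10, of heme A synthesis, was at 1.35 at 6 h, against -0.60 at 5 h and -2.23 at 8 h, and COX14 at 1.17, against 0.11 and -0.08.

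Of the 10 histone genes, 9 lay above the mean of 5 and 8 h, as did 2762 of all 5585 ORFs. Their median was 0.58, and 2 lay at least 2-fold above it (20.0%, against 10.7% of all ORFs). HTA1, for H2A, was at 1.25 at 6 h, against -0.20 at 5 h and 0.15 at 8 h, and HHF2, for H4, at 1.39, against 0.37 and -0.11. The exception was CSE4, for the centromeric H3 variant, at -1.48, against 0.31 and 0.41, which was 3.59-fold below. The DNA replication list had a median of 0.31 over 30, with 3 at least 2-fold above (10.0%, against 10.7% of all ORFs). At least 2-fold below was 1 (3.33%, against 9.83%). MCM3, of the replicative helicase, was at 1.18 at 6 h, against -0.34 and -0.89, ORC1, of the origin recognition complex, at 3.53, against 2.34 and 2.03, and DPB2, of polymerase epsilon, at 0.49, against -0.70 and -1.49. SLD5, of the GINS complex, was at -0.03, against 1.32 and 0.71. In the DNA damage list the checkpoint clamp gene RAD17 was at 1.37, against 0.17 and -0.07, but its local level was 1.50. That is the median of nearby ORFs at 6 h minus the mean of their medians at 5 and 8 h. With the local level removed the difference of RAD17 was -0.18.

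Nitrogen genes were low at 6 h as a group, with a median of -0.38 over 29, 12 at least 2-fold below the mean (41.4%, against 9.83% of all ORFs), 0 above, and 6 below both neighbours. Besides MEP2, GAP1 and GAT1, the GATA repressor GZF3 was at -2.32 at 6 h, against -0.20 at 5 h and -0.45 at 8 h. The allantoate permease DAL5 was at 0.19, against 1.94 and 1.46, and UGA3, the activator of the GABA genes, at -0.91, against 0.42 and 0.67. The proline permease PUT4 was at -4.63, against -2.30 and -3.77, and PUT1, the first enzyme of proline breakdown, at -2.97, against -1.33 and -2.29. CAN1, the arginine permease, was highest in the list with 0.52, against -0.74 and -0.19. Of other amino acid permeases, DIP5 was at -5.20 at 6 h, against -3.50 at 5 h and -1.20 at 8 h, and BAP3 at -4.35, against -2.69 and -1.33. In their list of 17, 3 were below (17.6%, against 9.83% of all ORFs) and 1 above (5.88%, against 10.7%). The upper end was ALP1, at 3.70 against 2.91 and 2.37.

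Genes of fatty acid oxidation in peroxisomes formed the lowest list, with a median of -1.38 over 11. Of these, 6 were at least 2-fold below (54.5%, against 9.83% of all ORFs) and 5 below both neighbours (against 4.17% of all ORFs). This list was added after FOX2 was seen among the lowest genes, so its median is no separate evidence. ECI1, an enoyl-CoA isomerase, was at -1.83 at 6 h, against 0.09 at 5 h and 0.04 at 8 h. POT1, the thiolase, was at -2.67, against -1.37 and -0.71, and CTA1, the peroxisomal catalase, at -1.14, against 0.01 and 1.44. PXA2, a subunit of the fatty acid importer, was at 0.00 with 1.10 and 1.64 on either side, while its partner PXA1 was at 1.31, against 1.04 and 0.56. SPS19, a dienoyl-CoA reductase of sporulation, was at 1.64, against 1.07 and 0.68. The peroxins, which build the organelle, had a median of -0.33 over 20. Of these, 3 were below (15.0%, against 9.83% of all ORFs) and 1 above (5.0%, against 10.7%). The peroxin list was also added after the 6 h values were seen and is no separate evidence.

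The heat shock and oxidative stress list had a median of -0.78 over 27, with 8 at least 2-fold below (29.6%, against 9.83% of all ORFs), 0 above, and 4 below both neighbours (against 4.17% of all ORFs). HSP12, a membrane chaperone of starved cells, was at -0.38, -0.16, -0.90, -1.43, -1.16, -2.59 and 0.72 over the 7 times. SSA3, another stress-induced Hsp70, was at 0.64 at 6 h, against 2.16 at 5 h and 2.86 at 8 h. The small heat shock protein gene HSP42 was at -0.995, against 0.96 and -0.09. SSC1, the Hsp70 of mitochondria, was on the other side with -0.95, against -1.33 and -1.90. Of 17 genes of glycogen and trehalose, 4 were below (23.5%, against 9.83% of all ORFs) and 0 above, with a median of -0.33. GSY1, a glycogen synthase, was at -1.20, against 0.05 and 0.15, and GDB1, the debranching enzyme, at -0.29, against 0.87 and 0.84. SGA1, the glucoamylase of sporulation, was at 7.50, against 6.84 and 7.29.

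Transporters of sugar went both ways, with a median of -0.34. Of 20, 4 were below (20.0%, against 9.83% of all ORFs) and 3 above (15.0%, against 10.7%). HXT2 was at -3.92 at 6 h, against -1.91 at 5 h and -2.11 at 8 h, and HXT1 at -1.88, against -0.61 and -0.48. HXT7 was at 0.07, against -1.59 and -1.91, and its near-identical neighbour HXT6 may share that signal. Among cell wall proteins CWP1 was at 4.63, against 2.71 and 2.02, and CIS3 at 0.95, against -0.42 and -0.56. YGP1 was at -4.28, against -2.84 and -2.36, and TIP1 at -2.67, against -2.56 and 2.16. In biosynthesis HIS1, the first enzyme for histidine, was at 2.31, against 0.43 and 0.14, and ADE1, of purine synthesis, at 1.08, against -1.66 and -0.88. In both lists most members lay within 2-fold. Of 45 amino acid genes 1 was above (2.22%, against 10.7% of all ORFs) and 6 below (13.3%, against 9.83%). Of 24 purine and pyrimidine genes 2 were above and 2 below (8.33% each). In sterol synthesis 4 of 21 were below (19.0%, against 9.83% of all ORFs) and 0 above, and the median of -0.29 was 0.010 after scaling. ERG26 was at -2.13, against -0.67 and -0.33. The 33 proteasome genes had no member at least 2-fold either way, and a median of 0.22.

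Of 22 genes of glycolysis and fermentation 4 were below (18.2%, against 9.83% of all ORFs) and 0 above. Their median was -0.13, and it was 0.31 after scaling, 0.17 after quantile normalization and 0.07 against a straight line. PGK1, of glycolysis, was at -5.64 at 6 h, against -5.19 at 5 h and -3.57 at 8 h, and ADH5, an alcohol dehydrogenase, at -4.23, against -2.74 and -2.15. Of 23 genes of the glyoxylate cycle and gluconeogenesis, 5 were above (21.7%, against 10.7% of all ORFs) and 2 below (8.7%, against 9.83%). ADR1, the activator of genes for growth on ethanol, was at 0.93, against -0.91 and -0.47, and the acetate transporter gene ADY2 at 0.20, against 2.29 and 1.71. Sulfate and methionine genes had a median of 0.46 over 20, with 1 above and 1 below (5.0% each). Secretion genes had a median of 0.31 over 28, with 3 above (10.7%) and 0 below. Iron uptake genes had a median of 0.12 over 21, with 2 above (9.52%) and 3 below (14.3%). Over all ORFs these shares were 10.7% above and 9.83% below. PMT2, a protein mannosyltransferase, was at 1.71, against 0.62 and -0.66. Autophagy genes had a median of -0.17 over 23, with 0 above and 1 below (4.35%, against 9.83% of all ORFs). The 1 below was the receptor gene ATG19, at -2.76, against -1.20 and -0.82. Translation factors had 3 of 29 above (10.3%, against 10.7% of all ORFs) and 1 below (3.45%, against 9.83%). Of the near-identical subtelomeric families, PAU (16 ORFs) had 1 above (6.25%, against 10.7% of all ORFs) and 0 below. COS (11 ORFs) had 0 above and 2 below (18.2%, against 9.83%), and the COS median of -0.41 was 0.023 after removal of the local level.

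Lists chosen to stand for cells outside meiosis had members on both sides. Of 19 genes of G1, budding and daughter separation, 3 were at least 2-fold above and 3 below (15.8% each, against 10.7% and 9.83% of all ORFs). Their median was -0.45, and 6 h values ran from -4.32 for DSE1 to 2.60 for AXL2. CLN2, a G1 cyclin, was at 0.76, against -0.37 and -0.69, and the daughter-specific chitinase CTS1 at -3.67, against -2.66 and -1.80. Of 20 mating and haploid genes, 5 were above (25.0%, against 10.7% of all ORFs) and 2 below (10.0%, against 9.83%). Their median was -0.19, and 0.13 after removal of the local level. The pheromone receptor genes STE3 and STE2 were on opposite sides: STE3 was at 4.60 at 6 h, against 3.21 and 2.52, and STE2 at -0.69, against 0.72 and 0.05. STE3 was at 0.15 at 1 h, and AGA2, of the same list, at 2.73 at 1 h and 4.30 at 2 h, so both rose above 0 h during the course. Over the 20 mating genes the median was 0.20 at 1 h and 0.19 at 6 h. How far these lists mark cells outside meiosis was not tested, nor was the part of such cells in the results above. ACT1, for actin, was at -1.68 at 6 h, against -1.74 and -0.99.

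Courses of the ORFs that stood out at 6 h also differed at 3 h. Of the 289 above both neighbours, 217 (75.1%) had a 3 h value below the mean of 2 and 4 h, and their median 3 h difference was -0.35. Of the 233 below both, 72 (30.9%) did, against 49.5% of all 5585. GPM3, AXL2 and PIR5 show it, with -0.75, -0.13 and -0.27 at 3 h, against 0.61, 0.82 and 1.16 at 2 h. Over all ORFs the differences at 3 and 6 h had a Pearson correlation of -0.30, and those at 2 and 6 h of 0.13. These are over 5585 ORFs that are not independent.

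Position on the chromosome moved with the 6 h difference. Systematic names number the ORFs along each chromosome arm. ORFs 2 numbers apart had correlated 6 h differences (Pearson r of 0.28), and so had ORFs 4 apart (0.20), while ORFs 1 apart (0.02) and 3 apart (-0.03) had not. The same alternation was seen at 2, 3 and 4 h, with r of 0.16, 0.19 and 0.18 for ORFs 2 apart. By chromosome, the median 6 h difference was below 0 on all of I to X, from -0.36 on III to -0.06 on IX, and above 0 on all of XI to XVI, from 0.09 on XIV to 0.23 on XVI. On chromosomes I to X 8.38% of 2983 ORFs were at least 2-fold above and 12.2% below, and on XI to XVI 13.4% of 2522 were above and 7.1% below. The sources used here do not give the layout of the array, and the part of position in the results above was not tested.

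**Figure D5:**
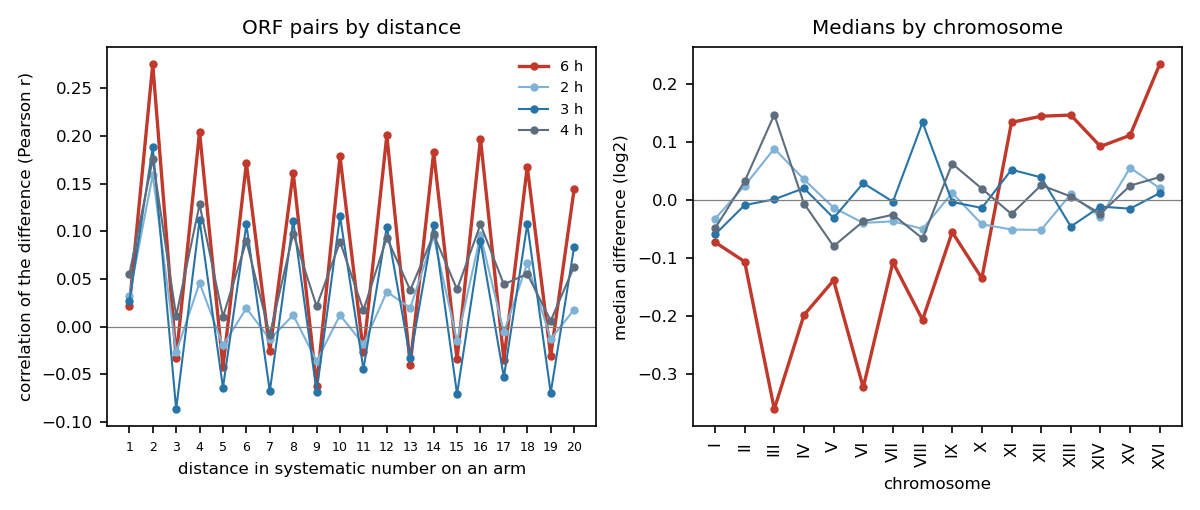
Left, Pearson correlation of the difference from neighbouring times between ORFs by their distance in systematic number on an arm, for 6, 2, 3 and 4 h; right, median difference by chromosome. At 6 h the correlation alternates with distance (0.02 at 1, 0.28 at 2), and chromosomes I to X lie below 0 and XI to XVI above.

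The local level of an ORF, the median over nearby ORFs at even distances up to 10, was known for 5476 ORFs and could be taken off each column. The correlation at distance 2 was then 0.03. After this 610 ORFs were at least 2-fold above the mean and 420 below, of which 360 and 272 were also counted without it, and 308 were above both neighbours and 182 below, with 166 and 97 shared. Local levels were large beside several genes named above. The local level at 6 h minus the mean of those at 5 and 8 h was -1.33 for GAT1, -1.25 for MPF1, -1.21 for MEP2, -0.77 for ENA5, 1.06 for ELO3, 1.00 for RPS0A and 0.85 for GPI11. It was 0.07 for HOP1, 0.15 for HXT5, -0.02 for PAL2, -0.01 for GLC3 and -0.12 for HSP12. HXT5 and PAL2 carry adjacent numbers, YHR096C and YHR097C, and were low together. MEP2 and MPF1, YNL142W and YNL144C, are 2 numbers apart. PUT7 and ECI1, YLR283W and YLR284C, are adjacent and lay on opposite sides, at 2.17 and -1.83.

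The 321 ORFs valued at 6 h alone have no neighbouring times to be set against, and 258 of them have a gene name. Their 6 h values had a median of 0.27 and quartiles of -0.58 and 1.04, and 26.2% were at least 2-fold above 0 h and 14.0% below. The ORFs used had a median of -0.15 at 6 h, with 18.9% above and 19.5% below. The highest was PFS1, of prospore formation, at 6.32, followed by HAB1 at 5.82, PAU24 at 4.09, KTR3, a mannosyltransferase, at 3.95 and GDT1, a Golgi ion transporter, at 3.47. PAU24 is of a family of near-identical genes. The lowest was CTF19, of the kinetochore, at -3.32, followed by SOG2 at -2.72, CIN10 at -2.49, RQC2 at -2.20 and NIS1 at -2.11. They were not scattered evenly: 28.1% had another such ORF 2 numbers away, against 15.2% at 1 number, 18.2% at 3 and 20.3% at 4. Of the 321, 37 belong to the lists above, among them RAD55 and RAD57, of strand exchange, at -1.55 and -0.65, and HIS4 at 1.08. In the opposite case, 50 ORFs are empty at 6 h alone. Their median was 0.00 at 5 h and 0.00 at 8 h, and 13 of them hold an exact 0 at 1 time or more. Among the ORFs used 37 hold such a 0, and whether it stands for a failed estimate is not given.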

How the data were processed

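Per the labels' protocols, mRNA of 7 time points was labelled with Cy5 and hybridised against a Cy3-labelled mixture of mRNA from all times. The deposited values are log2 ratios to 0 h, 1 column per time; according to the design text the authors divided each Cy5 over Cy3 ratio by that of 0 h before taking log2. The sources used here do not give the array platform, scanner, background correction, normalization or the depth or signal behind a value, so the number of columns, 1 per time, limits the precision and no test was made. All 7 columns were used; 0 columns of unknown samples were set aside.

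From the deposited table the 6 h difference, the distance beyond both neighbours and list medians were computed with Python 3.11.15, pandas 2.3.3 and numpy 2.4.6, with plots by matplotlib 3.10.9. Systematic names were matched to the RefSeq table of R64: 5150 of the 5585 ORFs matched and 435 kept their systematic name. The calculation was tested on simulated data with known shifts.

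Genes were named by a rule: the 12 named genes farthest beyond both neighbours on each side, up to 2 members at each end of every list, the 5 highest and 5 lowest ORFs valued at 6 h alone, and 14 genes of meiosis and reference use. Other members of lists, YOR342C and the genes next to the 2-fold size were named after their values were seen. The members, the rule and the 37 lists were chosen with earlier results of these data known, and 3 more lists were added after the 6 h values were seen. RPP1, an RNase P subunit, and MRP8 were taken out of the ribosomal lists by identity, also after values were seen. A planned search of promoters for motif letters was not run, because no promoter sequences were used here. Alternatives were centring the columns, scaling them to the same standard deviation, quantile normalization, a straight line in hours, matched ORFs only, and removal of the local level. Not every gene that the rule names is reported here.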

Additional observations from a re-analysis of the deposited data

How the results depend on the processing

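No paired analysis was possible because each time has 1 column. With no replicate spread, a count was taken as moved past 1.5 times, a list median past 0.25 and a gene past 1 (log2). Centring the columns and keeping matched ORFs moved none of the 4 counts and 37 list medians. Removal of the local level was chosen after seeing the data. The 596 ORFs above the mean became 262 after quantile normalization, and the 549 below became 303 after scaling to the same standard deviation and 296 after quantile normalization. The 289 above both neighbours became 186 and 90 under these settings, and the 233 below both 101 and 107. Between 47.0% and 61.9% of ORFs past 2-fold lay above under the alternatives, against 52.1%.

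After scaling, list medians were 0.56 for axis genes, 0.33 for nuclear division, 0.089 for the prospore membrane, -0.75 for the spore wall, -0.16 for G1 and budding, -0.24 for the PAU family, 0.31 for glycolysis (-0.13 as deposited), 0.35 for glyoxylate and gluconeogenesis (0.06), and 0.010 for sterol synthesis, reversed from -0.29. After quantile normalization they were 0.33, 0.16, 0.085, -0.46, -0.15, -0.28 and 0.17 for the first 7 of these lists, -0.10 for strand exchange and 0.17 for sulfate and methionine (0.46). After removal of the local level they were -0.18 for G1 and budding, -0.0485 for amino acid permeases (-0.32), 0.13 for mating genes, 1.22 for the prospore membrane, -0.11 for strand exchange, 0.22 for translation factors (-0.04), and 0.023 for the COS family, reversed from -0.41. Against a straight line they were 1.26 for cytosolic ribosomal proteins, 0.10 for ribosome biogenesis and 0.26 for translation factors. Among genes, FRE3 (0.057 from -1.12) and RAD17 (-0.18 from 1.32) reversed after removal of the local level, and NDT80 (from 1.11) after scaling (-0.0805) and quantile normalization (-0.22). The cause was not tested. A further 9 named genes moved without reversing after scaling, 13 after quantile normalization, 7 after removal of the local level and 1 against a straight line. Of 61 named genes at least 2-fold above, 32 stayed so under every setting run for genes, and of 56 below, 31. The share of array noise in any 6 h value is unknown, since intensities were not analysed here.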
